A study of Rattus norvegicus with 12 samples.

Results

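The fatty acid oxidation and peroxisome genes described here are 36 listed genes that encode the enzymes, transporters and regulators of mitochondrial and peroxisomal fatty acid breakdown and the peroxins that build peroxisomes. They were matched by symbol to a table of 32623 genes from rat kidney cortex, and 35 of the 36 were found. Pex19 was not matched and is not analysed here. Of the 35, 17 encode mitochondrial proteins, 15 peroxisomal proteins, 2 nuclear regulators and 1 a cytosolic enzyme, and all 35 passed the filter on low counts. The comparison of the genotypes bears on how loss of Xdh affects fat oxidation in the kidney, and the split by organelle on whether mitochondria and peroxisomes were affected alike at the level of transcripts.

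Fatty acids enter mitochondria through the carnitine shuttle and are then shortened in a repeated cycle by acyl-CoA dehydrogenases, hydratases, hydroxyacyl-CoA dehydrogenases and thiolases, with electrons handed to the respiratory chain by electron transfer flavoprotein. Peroxisomes run a parallel cycle on very long, branched and dicarboxylic chains, and PPAR alpha with its coactivator PGC-1 alpha switches on genes of both organelles. The kidney cortex consists mostly of proximal tubules, which draw much of their ATP from fatty acids and are rich in both organelles.

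The samples were male rats aged 6 weeks, all labelled with the strain SS-Xdhem1Mcwi and described as littermates. Xdh encodes xanthine dehydrogenase, which forms uric acid. HOMO rats carried the mutation on both Xdh alleles, HET rats on 1 allele, and WT rats on none, with 4 libraries in each group. HOMO and WT replicates were numbered 1 to 4 and HET replicates 1, 2, 4 and 5, and values per library are given in that order. The labels do not say that each library came from a separate animal, so p-values reflect only how far these samples spread, and that spread may be technical.

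Total counts lay between 22858907 and 36998378 in HOMO, 18995464 and 37023629 in HET, and 28481944 and 36119168 in WT. Levels are given as CPM (counts scaled to depth), adjusted by the trimmed mean of M values (TMM), a method that sets most genes as unchanged. Its factors were 1.29 to 1.35 in HOMO, 0.845 to 0.876 in HET and 0.830 to 0.908 in WT. With library size alone as the scale, the median log2 fold change of all genes, HOMO over WT, was 0.65 in place of 0.04, so a change is given relative to the TMM scale unless stated. Xdh stood at 61.7, 60.7, 230 and 57.6 CPM in HOMO, 182, 197, 140 and 158 CPM in HET, and 281, 380, 212 and 270 CPM in WT. The library labelled HOMO replicate 3 thus lay within the WT range of Xdh, unlike the other HOMO libraries. Whether its label is right was not tested, and the numbers of genes called are also given without it. Proximal tubule markers summed to 2847 to 3396 CPM in HOMO, 30712 to 33641 CPM in HET and 28136 to 34167 CPM in WT. In the library labelled HOMO replicate 3 they summed to 2882 CPM. All 15 proximal tubule markers were lower in HOMO than in WT (median log2 fold change -3.18), while all 9 tested leukocyte and all 6 tested fibroblast markers were higher (medians 2.99 and 2.60). Other kidney cells also had markers called lower, where 34.7% of all genes were. These were 4 of 5 tested for thick ascending limb, 3 of 3 for distal convoluted tubule and 7 of 8 for collecting duct. For podocytes and endothelium 3 of 4 each were lower, with 1 endothelial marker higher. On library size alone the numbers lower were 3, 1, 3, 2 and 1, in that order. The part of these cell types in the results below was not tested, and in whole tissue fewer cells of a type and less RNA per cell cannot be told apart. Summed markers of white fat were 903, 47.2, 34.8 and 42.1 CPM in HOMO, 208, 15.6, 33.2 and 9.25 CPM in HET, and 8.59 to 40.3 CPM in WT, so that HOMO replicate 1 and HET replicate 1 stood apart. Markers of the urinary lining (urothelium) summed to 150, 4.08, 0.761 and 0.915 CPM in HOMO. They summed to at most 0.561 CPM in HET and 12.3 CPM in WT, so HOMO replicate 1 stood apart there too.

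In HOMO cortex, 33 of the 35 genes were lower than in WT and none was higher (edgeR's quasi-likelihood test, adjusted over all genes tested). Over all 15856 genes tested, 34.7% were called lower and 37.0% higher, 71.7% in all. The median log2 fold change of the 35 genes was -1.30, against 0.04 over all genes tested. The HOMO mean was at or under 50% of the WT mean for 26 of the 35 genes, and at or under 25% for 6 of them. The libraries of HOMO and WT did not overlap, with HOMO lower, for 32 of the 35 genes, which holds for 32.2% of all genes tested. Called were the 2 nuclear regulators, the 3 genes of the carnitine shuttle, the 10 enzymes of the mitochondrial cycle, the 3 electron transfer flavoprotein genes, the 5 peroxisomal enzymes and transporter, 9 of 10 peroxins and the thioesterase gene. Pdk4 and Pex14 were not called. Without the library labelled HOMO replicate 3, and without HOMO replicate 1 and HET replicate 1, the same 33 genes were called lower. With library size alone, 26 were called lower and 2 higher, and over all genes 10292 of 12856 calls were higher, against 5861 of 11369 on the TMM scale.

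**Figure D1:**
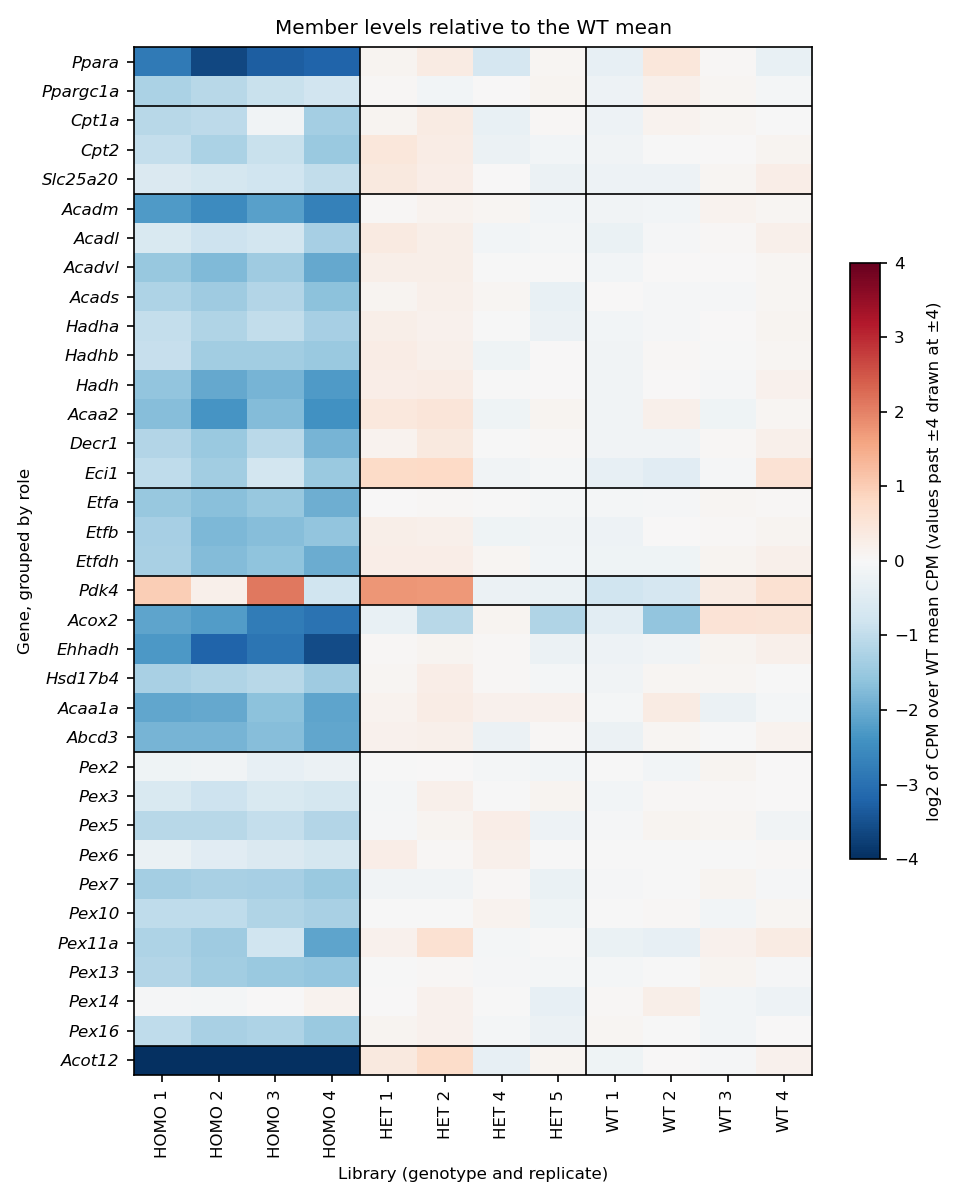
Level of each of the 35 genes (rows, grouped by role) in each of the 12 libraries (columns, HOMO, HET and WT), as the log2 ratio of its TMM-scaled CPM to the WT mean, with values past ±4 drawn at ±4. The HOMO columns lie below the WT mean for all rows but Pdk4 and Pex14. Among those rows the HOMO means of Pex2 and Pex6 are nearest to WT, and Cpt1a in HOMO replicate 3 lies close to the WT mean. Most HET cells lie near the WT mean, with Pdk4 and Eci1 above it in HET replicates 1 and 2 and Acox2 below it in HET replicates 2 and 5.

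Among the regulators, Ppara, which encodes the nuclear receptor PPAR alpha, reached 5.20, 3.00, 3.76 and 4.03 CPM in HOMO, against 29.6, 51.0, 38.2 and 30.2 CPM in WT. Its highest HOMO library was thus below its lowest WT library, and the HOMO mean was 10.7% of the WT mean. The log2 fold change was -3.21 ± 0.26 (SE, edgeR adjusted p = 2.69e-07). HET libraries held 40.4, 47.1, 23.4 and 39.2 CPM of Ppara and overlapped with WT. Ppargc1a, which encodes the coactivator PGC-1 alpha, had 29.4, 32.5, 37.7 and 41.1 CPM in HOMO, against 60.4, 80.0, 74.1 and 66.5 CPM in WT. It fell to 50.1% of the WT mean in HOMO, without overlap (edgeR adjusted p = 3.43e-06). Ppargc1a is also active in brown fat, and the other 3 matched brown fat markers summed to 35.03, 13.3, 4.37 and 2.54 CPM in HOMO and 0.889 to 1.85 CPM in WT. The part of that signal in Ppargc1a was not tested. In Rnor_6.0, Ppara begins at 126619196 of chromosome 7 and Ppargc1a at 63095720 of chromosome 14.

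The 3 genes of the carnitine shuttle were called lower in HOMO with a median log2 fold change of -0.82, the median closest to 0 among roles with several genes. Cpt1a, the outer membrane acyltransferase that sets the rate of fatty acid entry, had 149, 156, 291 and 124 CPM in HOMO, against 276, 350, 335 and 315 CPM in WT. The library labelled HOMO replicate 3 lay above the lowest WT library, and the other 3 HOMO libraries lay below all WT libraries. The log2 fold change of Cpt1a was -0.82 ± 0.23 (edgeR adjusted p = 0.00635), and -1.16 without that library. Cpt2, the inner membrane acyltransferase, had 31.5, 25.5, 33.1 and 21.8 CPM in HOMO, against 55.3, 60.5, 62.0 and 66.3 CPM in WT. Slc25a20, the carnitine and acylcarnitine exchanger, had 71.1, 64.5, 61.3 and 53.4 CPM in HOMO, against 92.2, 92.4, 110 and 128 CPM in WT. Neither Cpt2 nor Slc25a20 overlapped between HOMO and WT, with log2 fold changes of -1.13 ± 0.16 for Cpt2 and -0.76 ± 0.14 for Slc25a20. With library size alone, Cpt1a (adjusted p = 0.425) and Slc25a20 (adjusted p = 0.384) were not called.

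All 10 enzymes of the mitochondrial cycle were lower in HOMO, and none overlapped with WT. Their log2 fold changes ran from -2.40 for Acadm to -0.85 for Acadl, with a median of -1.36. Acadm, the medium-chain acyl-CoA dehydrogenase, had 149, 124, 160 and 109 CPM in HOMO, against 650, 660, 789 and 753 CPM in WT. It was 19.0% of its WT level (log2 fold change -2.40 ± 0.12, edgeR adjusted p = 3.32e-09) and, per length, the most abundant of the 35 genes in WT, at 365 RPKM (reads per kilobase of gene length, scaled to depth), against 69.2 RPKM in HOMO. Hadh, the dehydrogenase of short and medium 3-hydroxyacyl-CoA chains, had 82.3, 58.7, 67.4 and 51.1 CPM in HOMO, against 220, 247, 234 and 275 CPM in WT (log2 fold change -1.91 ± 0.14, edgeR adjusted p = 6.30e-08). Eci1, an enoyl-CoA isomerase needed for unsaturated chains, had the weakest call of the cycle. It held 71.8, 54.7, 86.5 and 51.4 CPM in HOMO, against 114, 106, 141 and 216 CPM in WT, and its log2 fold change was -1.12 ± 0.29, with an adjusted p of 0.00455 by edgeR. The WT libraries of Eci1 were thus spread widely, with replicate 4 at the top.

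Acaa2, the mitochondrial thiolase that closes the cycle, averaged 137 ± 36.1 CPM in HOMO and 556 ± 72.3 CPM in WT (SD, n = 4 each), and its log2 fold change was -2.02 ± 0.20. The very-long-chain dehydrogenase gene Acadvl averaged 88.6 ± 17.3 CPM in HOMO and 281 ± 14.8 CPM in WT. Decr1, the dienoyl-CoA reductase for polyunsaturated chains, averaged 70.8 ± 15.9 CPM in HOMO and 183 ± 22.0 CPM in WT. These are reductions to 24.6%, 31.5% and 38.6% of the WT mean. Acads, the short-chain dehydrogenase, averaged 53.6 ± 7.81 CPM in HOMO and 137 ± 5.65 CPM in WT. Acadl, the long-chain dehydrogenase, averaged 149 ± 30.2 CPM in HOMO and 269 ± 34.5 CPM in WT, 55.5% of WT. Acadl was not called with library size alone (log2 fold change -0.23, adjusted p = 0.195), nor was Eci1 (adjusted p = 0.128).

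Hadha and Hadhb encode the subunits of the mitochondrial trifunctional protein, which carries out the last steps of the cycle on long chains. Hadha averaged 220 ± 28.4 CPM in HOMO and 476 ± 31.2 CPM in WT, and Hadhb 170 ± 31.2 CPM in HOMO and 412 ± 28.2 CPM in WT. The log2 fold changes of -1.11 ± 0.12 for Hadha and -1.28 ± 0.13 for Hadhb lay close to each other, and the ratio of Hadha to Hadhb counts overlapped between groups, at 1.31 ± 0.157 in HOMO, 1.12 ± 0.132 in HET and 1.16 ± 0.0587 in WT (SD, n = 4 each). In RefSeq on GRCr8, the genes lie head to head on chromosome 6, with Hadhb starting at 31907500 on the minus strand and Hadha at 31907801 on the plus strand. The 300 bases between the starts are shown because both genes share them. They hold 57% G and C and 14 CG pairs, against medians of 52.3% and 7 over all promoters of the RefSeq table. The stretch is chr6:31907501-31907800, plus strand, with capitals for the 200 bases that lie within 250 bases of both starts.
Hadhb to Hadha: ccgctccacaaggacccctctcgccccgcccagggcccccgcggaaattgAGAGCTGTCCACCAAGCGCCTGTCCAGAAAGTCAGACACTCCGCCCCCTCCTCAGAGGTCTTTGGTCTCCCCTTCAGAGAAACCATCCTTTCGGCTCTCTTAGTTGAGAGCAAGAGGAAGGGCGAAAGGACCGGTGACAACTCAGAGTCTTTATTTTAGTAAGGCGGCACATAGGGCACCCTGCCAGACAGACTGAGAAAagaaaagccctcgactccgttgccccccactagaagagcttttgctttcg

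The electron transfer flavoprotein genes moved closely together. Etfa, the alpha subunit, had 166, 147, 164 and 123 CPM in HOMO, against 446, 453, 503 and 484 CPM in WT. Etfb, the beta subunit, had 102, 72.7, 77.8 and 85.4 CPM in HOMO, against 222, 256, 265 and 276 CPM in WT. Etfdh, the oxidoreductase that passes the electrons to ubiquinone, had 95.9, 71.0, 78.3 and 60.2 CPM in HOMO, against 213, 209, 257 and 270 CPM in WT. All 3 were without overlap and stood at 31.8%, 33.1% and 32.2% of the WT mean, in the order Etfa, Etfb and Etfdh, with log2 fold changes of -1.65 ± 0.09, -1.59 ± 0.13 and -1.63 ± 0.14 (largest edgeR adjusted p = 3.57e-07). The ratio of Etfa to Etfb counts overlapped between groups, at 1.80 ± 0.319 in HOMO, 1.81 ± 0.230 in HET and 1.86 ± 0.119 in WT.

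Pdk4, the pyruvate dehydrogenase kinase that holds back glucose oxidation when fat is burned, was the exception among the mitochondrial genes. It had 18.7, 10.9, 40.7 and 5.42 CPM in HOMO, 32.1, 31.3, 7.99 and 7.91 CPM in HET, and 5.46, 5.97, 11.9 and 14.3 CPM in WT. Each group spanned a wide range, with highest-to-lowest ratios of 7.51 in HOMO, 4.06 in HET and 2.62 in WT, and all 3 groups overlapped. The log2 fold change of HOMO over WT was 1.01 ± 0.69 and was not called (edgeR adjusted p = 0.210). Without the library labelled HOMO replicate 3 it was 0.31 (adjusted p = 0.681). The authors' deposited table called Pdk4 higher in HOMO, with a log2 fold change of 1.02 and a false discovery rate of 0.0390. Of the 35 genes, the authors' deposited table called 33 for HOMO against WT, 32 lower and Pdk4 higher, and did not call Pex2.

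**Figure D2:**
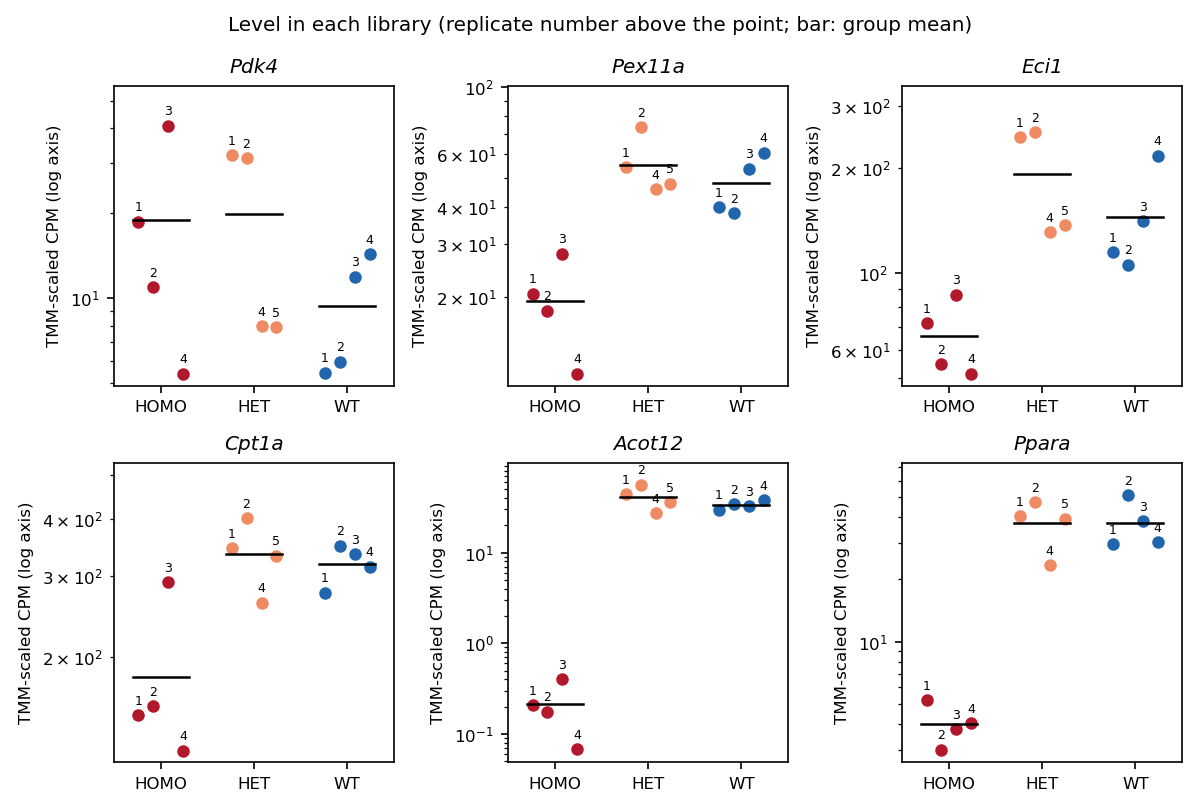
TMM-scaled CPM (log axes) of Pdk4, Pex11a, Eci1, Cpt1a, Acot12 and Ppara in each library, with HOMO, HET and WT from left to right, the replicate number above each point and a bar at the group mean. Pdk4 and Eci1 vary widely within genotypes, while Acot12 and Ppara separate HOMO from the other libraries.

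The 5 peroxisomal enzymes and transporter were lower in HOMO without overlap, with a median log2 fold change of -1.96. Acaa1a, the peroxisomal thiolase, had 36.7, 37.3, 50.5 and 35.8 CPM in HOMO, against 147, 196, 134 and 147 CPM in WT (log2 fold change -1.96 ± 0.13, edgeR adjusted p = 3.47e-08). The rat has a closely similar gene, Acaa1b, and how shared reads were counted is not given in the sources used here. Abcd3, the membrane transporter for long and branched acyl-CoA, had 73.8, 74.7, 82.1 and 64.0 CPM in HOMO, against 230, 284, 265 and 295 CPM in WT (log2 fold change -1.86 ± 0.12, edgeR adjusted p = 1.67e-08). The HOMO means were 25.7% of WT for Acaa1a and 27.5% for Abcd3. Acox2, the oxidase of branched chains and bile acid precursors, was the least abundant of the enzymes, with 3.41, 3.08, 2.10 and 1.86 CPM in HOMO, 11.8, 6.71, 15.8 and 6.37 CPM in HET, and 11.0, 4.91, 21.5 and 21.0 CPM in WT. Its WT libraries differed by up to 4.38-fold, yet all lay above the highest HOMO library (log2 fold change -2.48 ± 0.46, edgeR adjusted p = 4.48e-04).

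The bifunctional enzymes of the peroxisomal cycle fell to different extents. Ehhadh, the L-bifunctional enzyme and a known target of PPAR alpha, averaged 25.2 ± 9.69 CPM in HOMO and 192 ± 25.5 CPM in WT, 13.1% of WT. Hsd17b4, the D-bifunctional enzyme, averaged 170 ± 15.7 CPM in HOMO and 407 ± 30.4 CPM in WT, 41.7% of WT. The log2 fold changes were -2.93 ± 0.23 for Ehhadh and -1.26 ± 0.10 for Hsd17b4. The ratio of Ehhadh to Hsd17b4 counts was 0.148 ± 0.0578 in HOMO, 0.445 ± 0.0259 in HET and 0.472 ± 0.0588 in WT, and no HOMO library reached the lowest WT library.

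Of the 10 peroxins, 9 were called lower in HOMO and Pex14 was not, with a median log2 fold change of -1.10. Pex13, a membrane docking protein of the import machinery, had 32.1, 27.5, 25.8 and 24.7 CPM in HOMO, against 69.2, 71.2, 78.3 and 70.6 CPM in WT (log2 fold change -1.39 ± 0.08, edgeR adjusted p = 9.33e-09). Pex7, the receptor for the second type of targeting signal, had 8.75, 9.10, 8.99 and 8.06 CPM in HOMO, against 21.8, 22.0, 23.97 and 21.7 CPM in WT (log2 fold change -1.36 ± 0.08, edgeR adjusted p = 1.50e-08). These 2 genes were steady within groups and showed no overlap. Pex14, the docking partner of Pex13, had 21.7, 21.5, 22.8 and 24.97 CPM in HOMO, against 23.4, 26.5, 20.7 and 19.7 CPM in WT. Its groups overlapped fully, and the log2 fold change was 0.01 ± 0.11 (edgeR adjusted p = 0.943). On raw counts, which need no scale between libraries, the ratio of Pex13 to Pex14 was 1.22 ± 0.211 in HOMO, 3.26 ± 0.391 in HET and 3.25 ± 0.516 in WT, with no overlap of HOMO with WT. The pair joins the peroxin with the smallest adjusted p and the peroxin not called, so this separation follows from the choice of pair.

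Pex11a, a membrane protein of peroxisome division, averaged 19.4 ± 6.90 CPM in HOMO and 48.0 ± 10.8 CPM in WT (log2 fold change -1.30 ± 0.26). Pex5, the main import receptor, averaged 4.76 ± 0.306 CPM in HOMO and 10.1 ± 0.828 CPM in WT (log2 fold change -1.09 ± 0.12). Pex16, which acts in early membrane assembly, averaged 16.8 ± 2.20 CPM in HOMO and 39.9 ± 2.07 CPM in WT. Pex10, a subunit of the ubiquitin ligase that recycles Pex5, averaged 10.1 ± 0.967 CPM in HOMO and 22.0 ± 1.15 CPM in WT. These 4 peroxins stood at 40.4% to 47.0% of WT. Pex3, the membrane anchor of the Pex19 route, averaged 16.6 ± 1.10 CPM in HOMO and 26.6 ± 1.46 CPM in WT. Pex6, an ATPase of receptor recycling, averaged 18.8 ± 2.56 CPM in HOMO and 26.4 ± 0.536 CPM in WT. Pex2, another subunit of the ligase, averaged 27.7 ± 1.502 CPM in HOMO and 32.3 ± 2.01 CPM in WT, a small log2 fold change, -0.22 ± 0.07 (edgeR adjusted p = 0.0104). With library size alone, Pex2 was called higher in HOMO (log2 fold change 0.39, adjusted p = 3.72e-04) and Pex14 too (0.62, adjusted p = 1.40e-04), and Pex3 (-0.07) and Pex6 (0.12) were not called, so the direction of Pex2 and Pex6 depends on the scale.

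**Figure D3:**
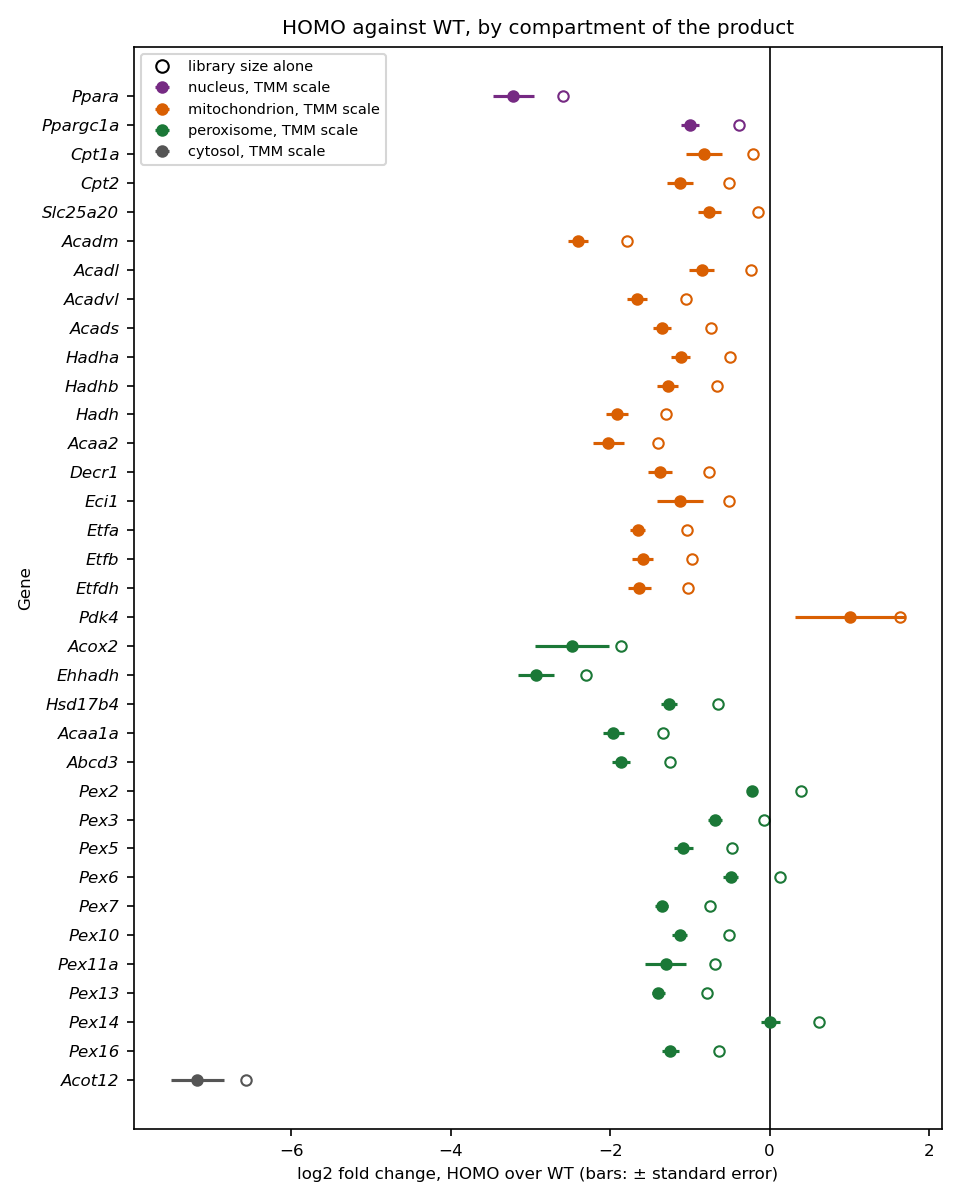
Log2 fold change of HOMO over WT for each of the 35 genes, coloured by the compartment of the product, with filled points and bars for the TMM scale (± standard error) and open points for library size alone. On the TMM scale 33 genes are called lower, from -7.18 for Acot12 to -0.22 for Pex2, and with library size alone Pdk4, Pex2, Pex6 and Pex14 lie above 0.

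The cytosolic gene Acot12, a thioesterase that splits acetyl-CoA, had the largest change of the 35 genes. Its counts in HOMO were 10, 7, 20 and 2, which is 0.206, 0.176, 0.400 and 0.0678 CPM, against 29.8, 34.4, 32.6 and 38.0 CPM in WT. The HOMO mean was 0.631% of the WT mean, the log2 fold change was -7.18 ± 0.33 (edgeR adjusted p = 2.63e-09), and the lowest WT library was far above the highest HOMO library. HET libraries had 43.9, 56.6, 27.1 and 36.2 CPM, on both sides of the WT range. In Rnor_6.0, Acot12 begins at 20857202 of chromosome 2. The library labelled HOMO replicate 3, which had a WT-like level of Xdh, held the most Acot12 of the HOMO group but still only 0.400 CPM.

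The promoters of 30 of the 35 genes were in the RefSeq table of GRCr8, as 300 bases from 250 before to 50 after the start. They were searched on both strands for a DR1 element, the repeat unit AGGTCA in direct repeat with 1 base between and at most 2 mismatches, which PPAR alpha with its partner RXR can bind. It was present in 4 of the 30 promoters (13.3%), those of Acadvl, Acot12, Etfa and Slc25a20, and in 1020 of 27457 promoters overall (3.71%). The ERR element TCAAGGTCA, searched without mismatch, was in 0 of the 30 and in 113 of all promoters (0.412%). These letter matches are descriptions of the windows and were not tested for binding. The bases before the start of the pair with 1 mismatch, Acot12 and Acadvl, are shown with the repeat units in capitals, Acot12 because it changed most and Acadvl because its match lies close before the start, at -17. They are chr2:24721709-24721958 on the plus strand, where the element reads on the opposite strand, and chr10:55236706-55236955 on the minus strand.
Acot12: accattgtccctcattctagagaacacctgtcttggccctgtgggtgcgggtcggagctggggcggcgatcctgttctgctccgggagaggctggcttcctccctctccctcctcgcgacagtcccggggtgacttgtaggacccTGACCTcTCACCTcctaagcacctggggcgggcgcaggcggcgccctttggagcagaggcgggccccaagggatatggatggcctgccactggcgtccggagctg
Acadvl: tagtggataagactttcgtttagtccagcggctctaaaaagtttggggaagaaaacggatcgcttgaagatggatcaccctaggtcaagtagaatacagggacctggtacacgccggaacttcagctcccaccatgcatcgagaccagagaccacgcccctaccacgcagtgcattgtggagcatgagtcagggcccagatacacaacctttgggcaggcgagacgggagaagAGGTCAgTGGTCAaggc

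Set against each other, nearly all mitochondrial and peroxisomal genes were lower in HOMO, and within each organelle the extent differed between genes. Of the 17 mitochondrial genes 16 were called lower, with a median log2 fold change of -1.35, and of the 15 peroxisomal genes 14 were called lower, with a median of -1.26. Within peroxisomes, the median was -1.96 for the enzymes and transporter and -1.10 for the peroxins. Summed counts of the mitochondrial genes over those of the peroxins were 10.1 ± 1.18 in HOMO, 15.9 ± 1.22 in HET and 15.1 ± 0.755 in WT, lower in HOMO. The sum of the peroxisomal enzymes over that of the peroxins was 1.80 ± 0.115 in HOMO, 3.31 ± 0.0670 in HET and 3.22 ± 0.214 in WT, also lower in HOMO. The sum of the mitochondrial genes over that of the peroxisomal enzymes was 5.61 ± 0.528 in HOMO, 4.80 ± 0.309 in HET and 4.70 ± 0.205 in WT, higher in HOMO. HOMO and WT did not overlap in any of these 3 ratios, which do not depend on the scale between libraries. A sum is led by its most abundant genes, and since the genes were chosen with results known, no p is given for it.

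Within the mitochondrial cycle, the ratio of Acadm to Acadl counts was 0.916 ± 0.101 in HOMO, 2.55 ± 0.359 in HET and 2.67 ± 0.216 in WT. Acadm thus exceeded Acadl in each HET and WT library, while the counts were near equal in HOMO. Acadm and Acadl had the largest and smallest change of the cycle, so the separation of their ratio follows from the choice of pair. Like the other ratios of gene pairs, this ratio restates fold changes of the same data. The ratio of Hadh to Hadha was 0.293 ± 0.0274 in HOMO, 0.555 ± 0.0478 in HET and 0.512 ± 0.0280 in WT, again without overlap of HOMO with WT. Relative to proximal tubule markers, the summed mitochondrial genes and the summed peroxins stood higher in HOMO. Summed counts of the mitochondrial genes over those of the 15 proximal tubule markers were 0.567 ± 0.105 in HOMO, 0.162 ± 0.0146 in HET and 0.161 ± 0.0157 in WT. The same ratio for the peroxins was 0.0559 ± 0.00418 in HOMO, 0.0102 ± 4.00e-04 in HET and 0.0107 ± 9.89e-04 in WT. The peroxisomal enzymes were not set against these markers. The markers themselves were lower in HOMO (median log2 fold change -3.18), so these ratios in whole tissue give no level per tubule cell.

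**Figure D4:**
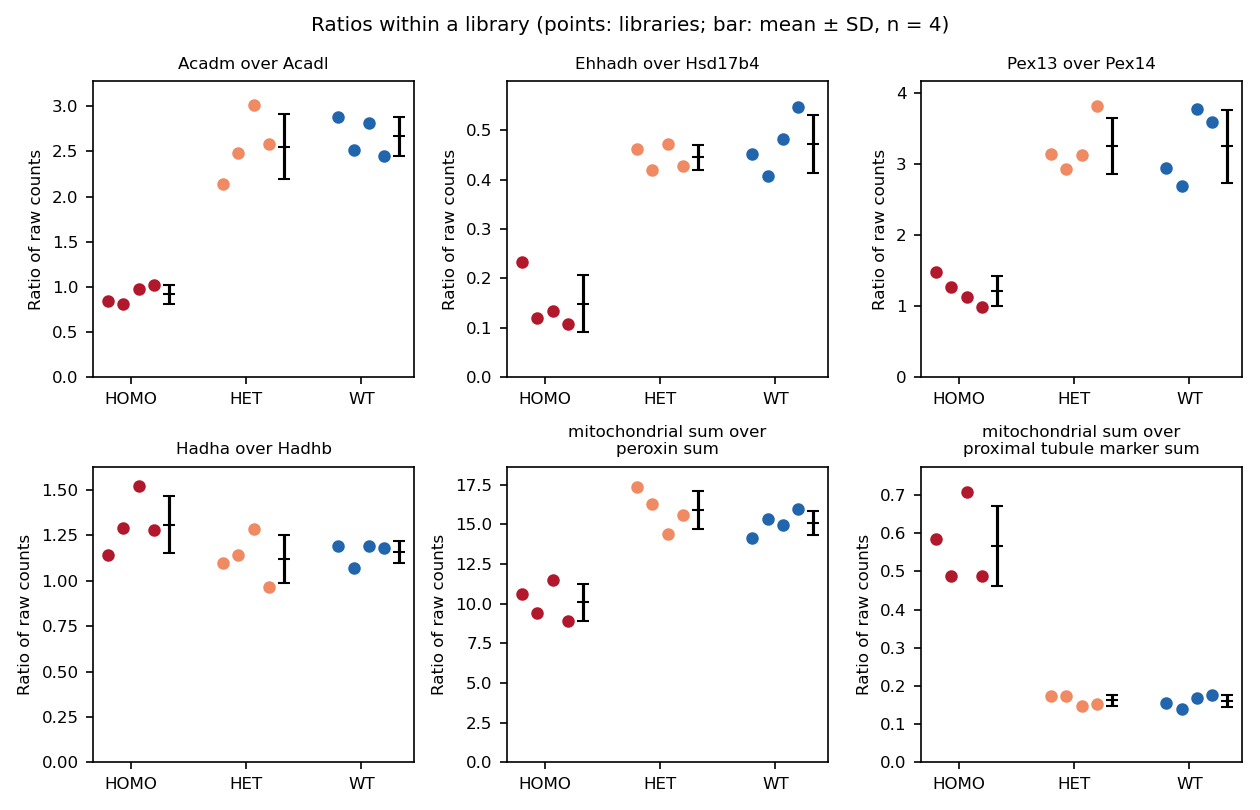
Ratios of raw counts within each library, 1 point per library and a bar for the mean ± SD (n = 4), for HOMO, HET and WT. The pairs of genes come from the same data as the fold changes, so no test is given. Acadm over Acadl, Ehhadh over Hsd17b4, Pex13 over Pex14 and the mitochondrial over the peroxin sum are lower in HOMO than in WT without overlap, Hadha over Hadhb overlaps, and the mitochondrial sum over the proximal tubule marker sum is higher in HOMO.

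In HET cortex, none of the 35 genes was called against WT, and none had an unadjusted p under 0.05 (edgeR's quasi-likelihood test). Over all genes, 0 were called (0%), and 318 (2.01%) had an unadjusted p under 0.05. DESeq2 and limma voom also called 0, with 330 and 236 genes at an unadjusted p under 0.05. All 35 genes overlapped between HET and WT, where 1.62% of all genes did not. The median log2 fold change was 0.12 for the mitochondrial and 0.00343 for the peroxisomal genes. The members ran from -0.52 ± 0.43 for Acox2 to 1.08 ± 0.69 for Pdk4, with Eci1 at 0.41 ± 0.29. Eci1 had 245, 253, 130 and 137 CPM in HET, against 114, 106, 141 and 216 CPM in WT. Its first 2 HET libraries lay above all WT libraries and the other 2 within the WT range, and Pdk4 showed the same split of its HET libraries.

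In HOMO against HET, 33 of the 35 genes were called lower and 0 higher (edgeR's quasi-likelihood test), where 34.5% of all genes were called lower and 36.2% higher, 70.6% in all. On the library-size scale, 27 of the 35 genes were lower and 2 higher, with Cpt1a, Slc25a20, Acadl, Pex3 and Pex6 not called, and over all genes 2514 were lower and 10380 higher. Both comparisons use the same HOMO libraries and are not independent. The median log2 fold change of HOMO over HET was -1.37 over the 35 genes, -1.52 for the mitochondrial and -1.25 for the peroxisomal genes. Ppara was at -3.23 ± 0.26, Acadm at -2.43 ± 0.12, Ehhadh at -2.92 ± 0.23 and Acot12 at -7.46 ± 0.34. Pdk4 (-0.07 ± 0.67) and Pex14 (0.03 ± 0.11) were not called. The call of Pex2 (-0.17 ± 0.07, edgeR adjusted p = 0.0353) was lost without HOMO replicate 4 (adjusted p = 0.0685), without the library labelled HOMO replicate 3 (0.0814), without HET replicate 1 (0.0673), without HET replicate 2 (0.0811) and without WT replicate 1 (0.0604). It was also lost with no filter on low counts (0.0600), with a filter at 1 CPM in 4 libraries (0.0541) and with only the 8 libraries compared (0.0616).

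Other genes of fat metabolism were read from 10 lists. Of 23 other genes of mitochondrial fatty acid oxidation, 21 were lower in HOMO than in WT and 1 higher, with a median log2 fold change of -1.53. Decr2, listed with them but a peroxisomal reductase, was at -2.82 ± 0.11, the acetyl-CoA thiolase Acat1 at -2.22 ± 0.09, and Cpt1c, a neuronal relative of Cpt1a, at 2.25 ± 0.22. Of 41 other peroxisomal enzymes and membrane proteins, 35 were lower and 4 higher, with a median of -1.43. With library size alone, 27 of them were lower and 6 higher, with a median of -0.82. The D-amino acid oxidase Dao (-4.24 ± 0.15) and the superoxide dismutase Sod1, which is mainly cytosolic (-2.14 ± 0.09), had the smallest p, and the transporter Abcd2 was called higher (3.99 ± 1.34, edgeR adjusted p = 0.0208). Abcd2 had 25.7, 1.82, 1.76 and 1.56 CPM in HOMO, against 0.413, 0.635, 0.605 and 0.315 CPM in WT, so HOMO replicate 1, the library with the most white fat markers, carried most of its difference. Without HOMO replicate 1, the log2 fold change of Abcd2 was 1.81 (edgeR adjusted p = 0.107). Its call was also lost without WT replicate 1 (adjusted p = 0.0537) and without WT replicate 4 (0.0543), and without HOMO replicate 1 and HET replicate 1 together Abcd2 was called (1.81, adjusted p = 0.00108). Of 6 other peroxins, 4 were lower and 0 higher, with a median of -1.10. Library size alone gave 3 lower and 2 higher, with a median of -0.50, so their balance depends on the scale. The 3 tested genes of carnitine synthesis and uptake were all lower, with the carnitine transporter Slc22a5 at -2.90 ± 0.17 and Aldh9a1, an enzyme of carnitine synthesis, at -1.88 ± 0.08. Of 5 genes of ketone body metabolism 4 were lower, with the succinyl-CoA transferase Oxct1 at -2.72 ± 0.13 and the dehydrogenase Bdh2 at -2.36 ± 0.09. On the library-size scale 3 of them were lower and 0 higher, with a median of -0.98 in place of -1.59.

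The lists of uptake, of receptors and of synthesis had calls in both directions, as all genes did (34.7% lower and 37.0% higher). Of 15 genes of fatty acid uptake and activation, 7 were lower and 4 higher in HOMO, with a median of -0.56. Scaled by library size alone, 7 were lower and 7 higher, with a median of 0.06. The medium-chain ligases Acsm2 (-3.86 ± 0.15) and Acsm3 (-4.60 ± 0.25) were lower. Fabp4, a fatty acid carrier of fat cells, was called higher (4.31 ± 1.73, edgeR adjusted p = 0.0458), with 768, 28.3, 22.5 and 18.3 CPM in HOMO, against 9.21, 9.27, 12.6 and 11.0 CPM in WT, so that HOMO replicate 1 carried most of it. Without HOMO replicate 1 the log2 fold change of Fabp4 was 1.13 (edgeR adjusted p = 0.430). The call of Fabp4 was also lost without any 1 of the 4 WT libraries (adjusted p = 0.0908 to 0.0968), and without HOMO replicate 1 and HET replicate 1 together Fabp4 was called (1.13, adjusted p = 1.14e-04). Of 25 nuclear receptors and coactivators 15 were lower and 6 higher, with a median of -0.36. Library size as the only scale gave 11 lower and 12 higher and a median of 0.25, so the balance of calls depends on the scale. Hnf4a (-3.18 ± 0.14), a transcription factor of proximal tubule identity, was lower, and the phosphatidate phosphatase and coactivator Lpin1 was higher (1.31 ± 0.29).

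Of 17 PPAR alpha targets outside the oxidation cycles, 10 were lower and 4 higher in HOMO, with a median of -1.13. Scaled by library size alone, 7 were lower and 6 higher, with a median of -0.50, so this balance depends on the scale. The lipase inhibitor G0s2 was lower (-2.33 ± 0.12), and the uncoupling protein gene Ucp2 (2.51 ± 0.14) and the lipoprotein lipase inhibitor Angptl4 (3.88 ± 0.68) were higher, so called targets of both directions were present. Of 13 genes of pyruvate dehydrogenase and its regulators, 11 were lower and 1 higher, with a median of -1.57. Library size alone gave 10 lower and 3 higher, with a median of -0.96. The pyruvate carrier Mpc1 (-2.27 ± 0.10) and the dehydrogenase subunit Dld (-1.71 ± 0.10) were lower and the phosphatase Pdp1 higher (1.196 ± 0.13). Of 22 genes of fatty acid synthesis and lipid storage, 6 were lower, 4 higher and 12 not called, with a median of 0.31. On the library-size scale 3 were lower and 12 higher, with a median of 0.92, so this balance too depends on the scale. The elongase Elovl1 (-1.42 ± 0.08) and the monoglyceride lipase Mgll (-2.29 ± 0.17) were lower. The 4 higher calls, looked up after their values were seen, were the desaturase Scd2 (1.79 ± 0.16), the acetyl-CoA carboxylase Acaca (0.73 ± 0.27) and the lipid droplet proteins Plin3 (0.25 ± 0.09) and Plin4. Plin4 had 42.6, 0.807, 0.761 and 0.136 CPM in HOMO and at most 0.0846 CPM in WT, again with HOMO replicate 1 far above the rest. In HET against WT, 0 genes of these 10 lists were called by edgeR's quasi-likelihood test, where 0% of all genes were.

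**Figure D5:**
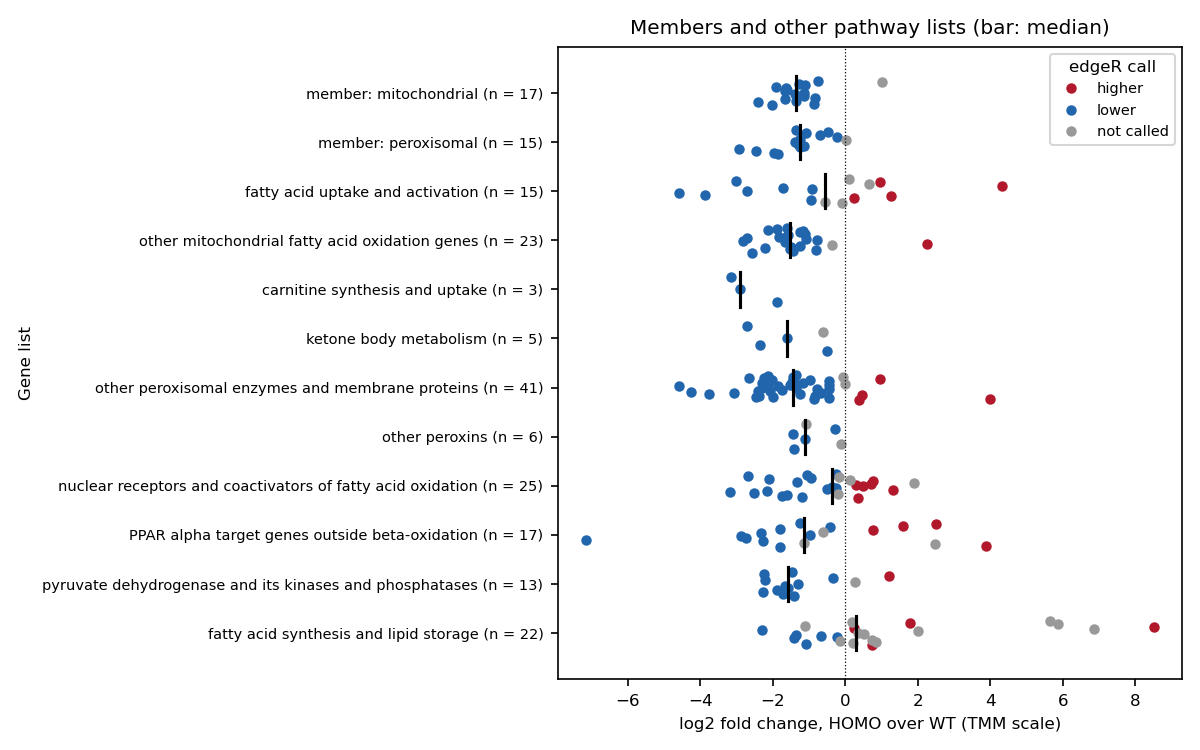
Log2 fold change of HOMO over WT (TMM scale) of each tested gene, 1 point per gene and a bar at the median, for the mitochondrial and peroxisomal members and the 10 other lists, coloured by the edgeR call. Nearly all called genes of the oxidation, peroxisome and pyruvate dehydrogenase lists are lower, and the lists of uptake, of receptors and of synthesis hold calls in both directions.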

How the data were processed

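RNA of kidney cortex was extracted with Trizol and sequenced from stranded mRNA libraries, per the labels' protocols. The authors deposited raw read counts per gene, with RPKM values and a score column of calls. Their comparison tables hold deposited log2 fold changes and p-values. Build Rnor_6.0 and edgeR 3.8.6 are named in the submitters' processing notes, while the sources used here name neither the aligner nor how strand was used. The RPKM values matched counts per length and depth (median deviation 0.0416%) and were not used further. RPKM printed here was computed with TMM scaling.

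Genes were filtered (minimum count 10, minimum total 15, 15856 of 32623 kept) and fitted with edgeR 4.0.16 in R 4.3.3 (TMM, robust quasi-likelihood test, 1 term per genotype, all 12 libraries), with Benjamini-Hochberg adjustment over all genes tested and a level of 0.05. The fit was also run on simulated data in which a small share of genes changed, equally in both directions. Such data cannot check the TMM scale where, as here, 71.7% of genes were called for HOMO against WT. SE is the fold change over the root of F. Spread between libraries limits the precision of most levels (median coefficient of variation 17.2% in HOMO, 13.6% in HET and 9.62% in WT), and depth that of Acot12 in HOMO. DESeq2 1.42.0 and limma 3.58.1 were among the alternatives. No protein sequences were used.

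The members and lists were chosen with earlier results of these data known. Named were, per role or list, the 2 genes with the smallest p, for members also that with the largest and any opposite in sign to the median, and from each list the called gene farthest against its median. For carnitine, ketone body and other peroxin genes no call went against the median. Symbols of 11 list genes other than Pex19 were not matched. Slc27a2 and Hnf4a are in a pathway list and among the tubule markers. Some genes that this rule names are not reported here.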

Additional observations from a re-analysis of the deposited data

Results flagged for a closer look

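Of 105 group-wise checks of the 35 genes (3 genotypes with 4 libraries each), 4 had a library set far apart from the others, measured as its gap to the nearest library over the whole range, where chance gives about 1 in 20. Hadhb stood at 216 CPM in HOMO replicate 1, with the other HOMO libraries between 147 and 159 CPM. Acaa1a stood at 50.5 CPM in the library labelled HOMO replicate 3, with the others between 35.8 and 37.3 CPM. Pex3 stood at 24.5 CPM in WT replicate 1, with the others between 27.1 and 27.6 CPM. Pex7 stood at 23.97 CPM in WT replicate 3, with the others between 21.7 and 22.0 CPM. Each of these genes stayed called lower in HOMO than in WT without that library.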

How the results depend on the processing

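All alternatives run, except those named next, kept the 33 genes called lower in HOMO than in WT. With library size alone 28 were called, 27 of them also called on the TMM scale, Pex2 among these in the opposite direction. Cpt1a, Slc25a20, Acadl, Eci1, Pex3 and Pex6 were lost and Pex14 gained. Against a fold of 1.5, 28 were called. At an adjusted p level of 0.01 the call of Pex2 was lost (edgeR adjusted p = 0.0104). With library size alone the medians moved to -0.73 (mitochondrial) and -0.64 (peroxisomal) for HOMO against WT, and to -0.89 and -0.62 for HOMO against HET, and Pex2 (0.39) and Pex6 (0.12) reversed for HOMO against WT and Pdk4 (0.57), Pex2 (0.46) and Pex6 (0.00311) for HOMO against HET. Against a fold of 1.5, 6606 genes were called for HOMO against WT and 6520 for HOMO against HET. The gap between organelles depended on its measure. The log2 CPM difference, mitochondrial minus peroxisomal, HOMO minus WT, was -0.95 from medians, -0.017 from means and 0.63 without the peroxins, which is a reversal. The first value compares levels of the middle gene of each organelle, which need not be the same gene in HOMO and WT. The median log2 fold changes were -1.35 for mitochondrial and -1.26 for peroxisomal genes, and -1.96 for the peroxisomal genes without the peroxins. No gap between organelles is thus read from the first value.

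Leaving out each library kept 33 calls for HOMO against WT and 32 to 33 for HOMO against HET. Pex14 ranged from -0.059 to 0.088 for HOMO against WT (-0.04 without HOMO replicate 4, -0.04 without WT replicate 3 and -0.059 without WT replicate 4) and from -0.056 to 0.10 for HOMO against HET, and Pdk4 from -0.77 to 0.27 for HOMO against HET. Neither the labels nor the data showed that equal replicate numbers pair samples. Deviations of equal numbers correlated at -0.133 to 0.0223 between HOMO and WT, at -0.0276 to 0.185 between HET and WT, where replicate 2 matched its own number best, and at -0.0959 to 0.44 between HOMO and HET, where replicate 1 did, while the other samples did not. With the replicate block, 33 of the 35 genes were called for HOMO against WT (11265 genes in all), 0 for HET against WT and 32 for HOMO against HET, where Pex2 was lost (adjusted p = 0.0732) and Pex14 was at -0.025. Leaving out HOMO replicate 1 and HET replicate 1, chosen after seeing the data, left 33 calls for HOMO against WT and 32 for HOMO against HET, where Pdk4 was at 0.27. Depth limits Acot12 in HOMO, where 2 to 20 counts per library were found.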

Other observations

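Pdk4 was higher in some libraries of each genotype, and other genes of the set shared that order. In HOMO the highest library for Pdk4 was the one labelled replicate 3, in HET replicates 1 and 2 both exceeded replicates 4 and 5, and in WT replicate 4 was highest. The same order held for 9 of the 35 genes (25.7%), namely Pdk4 itself, Eci1, Decr1, Acadvl, Acads, Cpt2, Abcd3, Pex11a and Acot12, and for 118 of all 15856 genes tested (0.744%). Pex11a, for example, had 20.5, 18.1, 27.9 and 11.1 CPM in HOMO, 54.0, 73.4, 45.8 and 47.7 CPM in HET, and 39.9, 38.0, 53.6 and 60.4 CPM in WT. The order was noticed in these values, so it is a description with no test, and the genes are not independent of each other.

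Angptl4, looked at after its values were seen, followed the same order. Angptl4 had 60.1, 56.9, 108 and 30.4 CPM in HOMO, 19.3, 15.5, 2.14 and 5.15 CPM in HET, and 2.89, 3.34, 3.82 and 7.17 CPM in WT, and thus had both a difference between HOMO and WT and a spread within each group. Summed white fat markers were 903, 47.2, 34.8 and 42.1 CPM in HOMO, 208, 15.6, 33.2 and 9.25 CPM in HET, and 23.9, 8.59, 40.3 and 39.9 CPM in WT. The part of fat cells in the order was not tested. Cyp4a2, a fatty acid omega-hydroxylase chosen after its values were seen, had 17.9, 26.0, 14.9 and 12.1 CPM in HOMO, 2080, 4133, 4827 and 2436 CPM in HET, and 2754, 1373, 2988 and 2891 CPM in WT. It belongs to a family of similar genes, and how shared reads were counted is not stated, so its level is uncertain.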
